A study of Mus musculus with 6 samples.

Results

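The muscle ubiquitin ligases and autophagy genes described here are 10 named genes, out of 13747 genes with a tested probe on the arrays. They were chosen by gene name, with earlier results of these data known. They comprise 4 ubiquitin ligase genes of striated muscle (*Fbxo32*, *Trim63*, *Trim54* and *Trim55*), the transcription factor gene *Foxo3*, the autophagy initiating kinase gene *Ulk1*, 2 genes of the ATG8 family (*Map1lc3b* and *Gabarapl1*) and 2 autophagy receptor genes (*Sqstm1* and *Bnip3*). Expression was measured in the myocardium of male C57BL/6J mice, with 3 hearts that had received AAV NEXN-WT and 3 that had received AAV NEXN-S437E. NEXN, or nexilin, is an actin-binding protein of the cardiac Z-disc and junctional membranes, and in the S437E form a serine is replaced by glutamate to mimic phosphorylation. All 6 hearts were labelled *Clk4*-cKO. Per the study's methods, in these mice exons 3 to 10 of the kinase gene *Clk4* are flanked by loxP sites and are removed in cardiomyocytes by α-MHC-MerCreMer, a tamoxifen-inducible Cre that contains ligand-binding domains of the estrogen receptor. By these labels both groups share the deletion, the transgene, the tamoxifen and a viral vector, an AAV9 with a CMV promoter that is not restricted to cardiomyocytes and that also encodes GFP. Tamoxifen was given for 5 days at 6 to 8 weeks of age. Each heart was hybridised to its own array in a single colour (Cy3), and no heart labelled as other than *Clk4*-cKO was part of the comparison. Values are background-subtracted spot intensities on the log2 scale relative to the 75th percentile of the array's detected probes, so that 0 marks the percentile and a difference of 1 is 2-fold.

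In muscle, proteins are removed by 2 systems. In the ubiquitin-proteasome system, E3 ligases attach ubiquitin to chosen proteins, which the 26S proteasome then degrades. In autophagy, a membrane forms around cargo that receptors tether to lipidated ATG8 proteins, and the resulting autophagosome fuses with the lysosome. FoxO transcription factors, FoxO3 among them, switch on genes of both systems when insulin and growth factor signalling is low, and *Fbxo32* and *Trim63* are the classical transcripts of muscle atrophy. In the heart both systems renew sarcomeres and mitochondria.

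Before the members, the targeted genes were read. The *Clk4* probe that was well above background on all arrays (A_52_P445387) had a log2 fold change of 0.05. The other *Clk4* probes, A_52_P128262 and A_52_P368396, were read well above background by 3 and 2 of the 6 arrays and were not tested. Their means were higher by 0.37 and 0.52 with NEXN-S437E. Over all probes, dim ones included, the median log2 fold change was 0.20, against 0.01 over the tested probes. Whether any of the 3 *Clk4* probes lies in the deleted exons was not assigned here. The 2 *Nexn* probes had changes of −0.06 and 0.06. A gene related to the transgene separated the groups. Of 7 probes for *Esr1*, the estrogen receptor gene from which the ligand-binding domains of MerCreMer derive, A_55_P2030883 read 0.65, 3.23 and 2.60 in the hearts labelled NEXN-WT, and −7.95, −8.26 and −8.03 in those labelled NEXN-S437E, where no array read it well above background. The difference was at least 269-fold, lower in the hearts labelled NEXN-S437E (adjusted p = 0.00221, limma), although the labels give both groups as *Clk4*-cKO. Which part of the receptor the probe reads was not assigned here. Another *Esr1* probe, A_52_P237077, was also read well above background by all 3 NEXN-WT arrays and by 0 of the NEXN-S437E arrays, and was at least 1.64-fold lower (adjusted p = 0.221). A_65_P17231 differed by −0.66 (adjusted p = 0.365), and the other 4 were near background in both groups. Whether the hearts labelled NEXN-S437E carry α-MHC-MerCreMer, and with it the *Clk4* deletion, was not tested. If they do not, each comparison below also sets hearts without the deletion against hearts with it. No array could be left out to remove the *Esr1* difference, which separates the groups completely, so in every comparison below a difference in the transgene or in the deletion cannot be told apart from the NEXN form. NEXN-WT and NEXN-S437E therefore stand below for hearts with those labels. NEXN-WT replicate 1 also stood apart. Its mean absolute log2 distance from the other arrays was 0.37 to 0.55, against 0.19 to 0.32 among the others. The share of spots well above background was 41.9% to 47.8% per array. The fibroblast markers were lower with NEXN-S437E (7 of 7 genes, median −0.94, 6 of them at unadjusted p under 0.05), and the cardiomyocyte markers were higher in all 8 genes (median 0.34, 2 at unadjusted p under 0.05). Under quantile normalization 6 of the 8 were higher, the median was 0.18 and 0 passed, and with the study's own values the same counts came with a median of 0.18. The T cell markers were lower in 3 of 4 tested genes, with a median of −1.59, and 2 of them passed the adjusted p. At an unadjusted p under 0.05, 3 were lower, and with normexp background correction 1 was, with a median of −0.21. With the filter on all 6 arrays the median of the 3 genes left was −0.62. The summed level of the cardiomyocyte markers was 301.6 to 362.8 in the NEXN-WT hearts and 416.2 to 433.0 in the NEXN-S437E hearts, as multiples of the percentile. Their part in the values below was not tested, and in whole myocardium fewer cells of a type and less RNA per cell cannot be told apart.

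The array carries 20 probes for the 10 genes. Of these, 16 were tested with limma because every array of 1 group or of both read them well above background, and 15 were read so by all 6 arrays. Every gene had at least 1 tested probe, and 5 genes had more than 1. No member probe passed an adjusted p of 0.05, which 34 of the 22998 tested probes (0.148%) passed, and the smallest adjusted p of a member was 0.212. None reached the study's thresholds of a 2-fold change with an unadjusted p under 0.05, which 2.57% of tested probes reached. At an unadjusted p under 0.05, 2 member probes were higher with NEXN-S437E (*Bnip3* and *Trim54*) against 7.84% of all tested probes, and 0 were lower against 8.57%. In 7 tested member probes of 6 genes the 3 NEXN-S437E values all lay above the 3 NEXN-WT values, and in 0 they all lay below. Over all tested probes these shares were 14.4% and 12.4%. The median log2 fold change of the 10 main probes, the tested probe of highest mean for each gene, was 0.22, beside −0.01 over all genes with 1 probe each. Over all 16 tested member probes, of which 9 were higher and 7 lower, it was 0.095, beside 0.01 over all tested probes. The smallest p that an exact two-sided permutation test of 3 against 3 hearts can give is 0.1, so that a lack of overlap alone cannot pass.

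**Figure D1:**
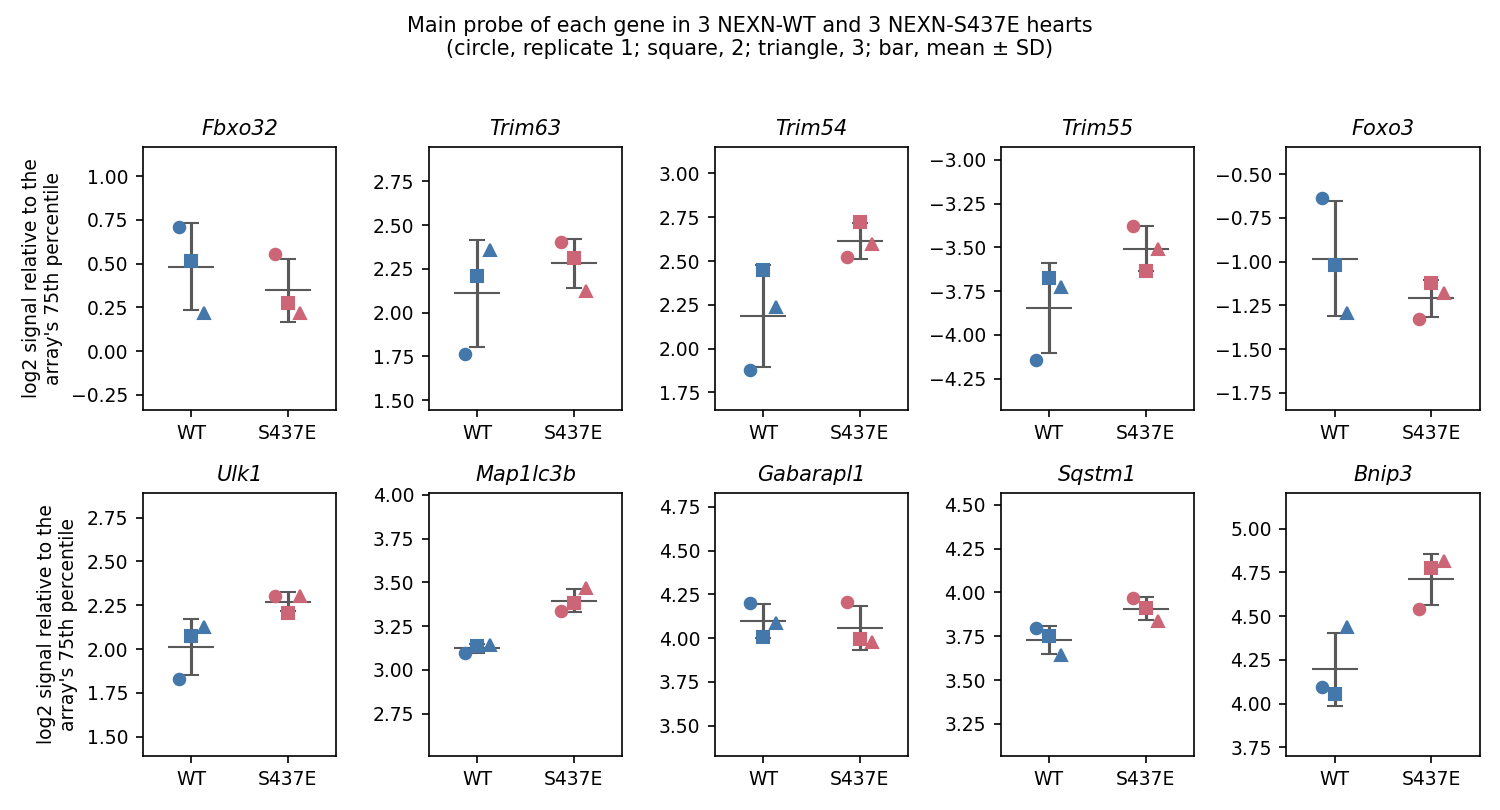
Log2 signal of the main probe of each of the 10 genes, relative to the array's 75th percentile, in the NEXN-WT hearts (blue, 3 points) and the NEXN-S437E hearts (red, 3 points); bars give the mean ± SD and each panel spans the same 1.5 units. The groups are separated in *Trim54*, *Trim55*, *Ulk1*, *Map1lc3b*, *Sqstm1* and *Bnip3*, and overlap in *Fbxo32*, *Trim63*, *Foxo3* and *Gabarapl1*.

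RefSeq promoter sequences (GRCm38.p6) matched 8 of the 10 genes; *Fbxo32* and *Trim55* were not matched. The FoxO-type motif GTAAACA was searched on both strands of the 300-base windows. It was in 1 of the 8, that of *Trim63*, and in 3.65% of all 32851 promoters. The E-box CACGTG, which reads the same on both strands, was in 1 of the 8, that of *Bnip3*, and in 7.15% of all promoters. Both are shown for the 250 bases before the transcription start, 5′ to 3′ on the strand of the gene, because they belong to the classical FoxO target of the set and to the member with the largest difference. The capitals mark the match, which in *Trim63* is the reverse complement of the motif 194 to 188 bases before the start and in *Bnip3* lies 108 to 103 bases before it.
Trim63, chr4:134314870-134315119 (+): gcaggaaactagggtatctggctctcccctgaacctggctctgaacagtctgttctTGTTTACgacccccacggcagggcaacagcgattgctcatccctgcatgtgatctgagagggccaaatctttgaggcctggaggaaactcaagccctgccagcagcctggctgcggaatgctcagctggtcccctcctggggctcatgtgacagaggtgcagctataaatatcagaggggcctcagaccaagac
Bnip3, chr7:138909507-138909756 (−): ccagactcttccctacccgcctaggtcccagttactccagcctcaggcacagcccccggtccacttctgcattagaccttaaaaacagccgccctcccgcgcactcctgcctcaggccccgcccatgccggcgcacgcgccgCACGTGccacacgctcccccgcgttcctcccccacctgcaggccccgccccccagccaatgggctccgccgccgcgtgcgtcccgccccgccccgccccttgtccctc
A match in these letters is a description and not a binding site.

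*Fbxo32* encodes atrogin-1, the F-box subunit of an SCF ubiquitin ligase, and was read by a single probe on chromosome 15 of mm9 from 58007497 to 58007556. It read 0.71, 0.51 and 0.22 in the NEXN-WT hearts, against 0.55, 0.27 and 0.22 with NEXN-S437E. The ranges lay almost on top of each other, and the log2 fold change was −0.13 (95% confidence interval −0.54 to 0.28, unadjusted p = 0.469, adjusted p = 0.711, limma). The interval runs from a factor of 0.686 to a factor of 1.21, and so lies inside the 2-fold limits. With 1 array left out in turn the log2 fold change was −0.26 (without NEXN-WT replicate 3) to −0.02 (without NEXN-WT replicate 1).

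*Trim63* encodes MuRF1, a RING-finger ligase of sarcomeric proteins. Its brightest probe, A_52_P517224, had values of 1.77, 2.21 and 2.36 with NEXN-WT and of 2.40, 2.31 and 2.12 with NEXN-S437E. NEXN-WT replicate 1 was the lowest of the 6 hearts, and the other 5 lay between 2.12 and 2.40. The log2 fold change was 0.17 (interval −0.26 to 0.61, adjusted p = 0.650), and without that heart it was 0.00074. The probe A_55_P2106745 gave −0.04 (interval −0.50 to 0.42), with values of −0.68, −0.21 and −0.05 against −0.53, −0.16 and −0.37, a difference whose sign also turned under other settings. A further probe, A_51_P115335, exceeded background clearly on 1 array of the NEXN-WT group and 2 of the NEXN-S437E group and was not tested. Its values were −6.47, −6.12 and −7.01 against −5.60, −5.68 and −5.87.

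*Trim54* encodes MuRF3, a relative of MuRF1 that associates with microtubules and the Z-disc. Its probe on chromosome 5 from 31439943 to 31440002 read 1.88, 2.45 and 2.24 in the NEXN-WT hearts, against 2.52, 2.72 and 2.59 with NEXN-S437E. All NEXN-S437E hearts were above all NEXN-WT hearts, with a gap of less than 0.1 between the nearest 2, and NEXN-WT replicate 1 was again the lowest. The log2 fold change was 0.43 (interval 0.02 to 0.84, 1.34-fold, unadjusted p = 0.0433, adjusted p = 0.292). Without NEXN-WT replicate 1 it was 0.27 (unadjusted p = 0.088). The difference was positive under all 19 alternatives and had an unadjusted p under 0.05 in 8 of them.

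*Trim55* encodes MuRF2, which binds titin and microtubules. The groups did not overlap here either, with values of −4.14, −3.67 and −3.73 against −3.38, −3.64 and −3.51. The log2 fold change was 0.34 (interval −0.05 to 0.74, unadjusted p = 0.0809, adjusted p = 0.354), and without NEXN-WT replicate 1, the lowest heart, it was 0.20.

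By their main probes the 3 MuRF genes had estimates of 0.17, 0.43 and 0.34, and *Fbxo32* had −0.13. The other tested *Trim63* probe had −0.04. The differences between these 4 genes were not tested, and their intervals overlap.

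*Foxo3* encodes the FoxO transcription factor itself. Its brightest probe, A_65_P08314, had values of −0.64, −1.02 and −1.29 with NEXN-WT and of −1.33, −1.12 and −1.18 with NEXN-S437E, and NEXN-WT replicate 1 was the highest of the 6. The log2 fold change was −0.23 (interval −0.66 to 0.21, adjusted p = 0.553), and −0.05 without that heart. The dimmer probe A_55_P2506540 gave 0.02 (interval −0.53 to 0.57). The probe A_55_P2735425, which cleared background on 2 arrays of the NEXN-WT group and on 0 of the NEXN-S437E group, stood too close to background for a fold to be given.

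*Ulk1* encodes the kinase that starts autophagosome formation. Its tested probe, A_55_P1977314, read 1.83, 2.07 and 2.13 in the NEXN-WT hearts, against 2.30, 2.21 and 2.30 with NEXN-S437E. The groups did not overlap, and the log2 fold change was 0.26 (interval −0.06 to 0.58, 1.20-fold, unadjusted p = 0.0959, adjusted p = 0.375). It was 0.17 without NEXN-WT replicate 1, the lowest heart, and 0.17 under quantile normalization. A probe whose mm9 coordinates span 392 bases was near background on all 6 arrays, none of which read it well above.

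*Map1lc3b* encodes LC3B, an ATG8 protein that is lipidated onto the autophagosome and anchors receptors there. Its main probe varied little within the groups (SD 0.026 with NEXN-WT and 0.067 with NEXN-S437E, n = 3 each). This probe, A_66_P124779, had values of 3.09, 3.14 and 3.14 with NEXN-WT and of 3.34, 3.38 and 3.47 with NEXN-S437E, and A_52_P563475 had 1.80, 1.80 and 1.96 against 2.10, 2.11 and 2.16. Neither probe overlapped between the groups, and their log2 fold changes were 0.27 (interval −0.01 to 0.55, unadjusted p = 0.0571, adjusted p = 0.320) and 0.27 (interval −0.02 to 0.56, unadjusted p = 0.0643, adjusted p = 0.330). The methods' t-test, which does not pool the spread over probes, gave unadjusted p of 0.0028 and 0.00872 and adjusted p of 0.324 and 0.338 on the same values. Under quantile normalization the differences were 0.13 and 0.18. The probe A_55_P2715241 cleared background on 2 arrays of the NEXN-WT group and 1 of the NEXN-S437E group and was not tested.

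*Gabarapl1* encodes another ATG8 protein and, like *Map1lc3b*, is a known FoxO target. Its brightest probe, A_52_P633410, had values of 4.20, 4.01 and 4.09 with NEXN-WT and of 4.20, 3.99 and 3.98 with NEXN-S437E. The ranges overlapped, and the log2 fold change was −0.04 (interval −0.36 to 0.27, adjusted p = 0.891), with a sign that depended on the scaling. The probe A_55_P2727060 gave −0.21 (interval −0.53 to 0.11, adjusted p = 0.453).

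*Sqstm1* encodes p62, a receptor that binds both ubiquitin and ATG8 proteins and is itself degraded by autophagy. Its probes did not go one way. The brightest, A_51_P119077, had values of 3.79, 3.75 and 3.64 with NEXN-WT and of 3.97, 3.91 and 3.84 with NEXN-S437E, without overlap, for a log2 fold change of 0.18 (interval −0.11 to 0.47, adjusted p = 0.488). Under quantile normalization this difference was 0.03. The probe A_55_P2069714 gave −0.15 (interval −0.57 to 0.28), with values of −0.95, −0.77 and −0.51 against −0.65, −0.89 and −1.13. With 1 array left out in turn it gave −0.26 (without NEXN-S437E replicate 1) to −0.03 (without replicate 3 of either group). The dim probe A_66_P110606 gave −0.50 with an interval of −1.74 to 0.75, and a single heart decided it. NEXN-S437E replicate 1 had −7.37, while the other 5 hearts lay between −5.87 and −5.26, and without that heart the difference was 0.18.

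*Bnip3* encodes an outer mitochondrial membrane receptor for mitophagy that is a target of FoxO3 and of the hypoxia-inducible factors. It showed the largest log2 fold change in absolute size among the 16 tested member probes. Its probe on chromosome 7 from 146082760 to 146082819 read 4.09, 4.06 and 4.44 in the NEXN-WT hearts, against 4.54, 4.77 and 4.82 with NEXN-S437E. All NEXN-S437E hearts were above all NEXN-WT hearts, with NEXN-WT replicate 3 and NEXN-S437E replicate 1 the nearest pair. The log2 fold change was 0.51 (standard error 0.16, interval 0.14 to 0.89, 1.43-fold, unadjusted p = 0.0136, adjusted p = 0.212). It was positive under all 19 alternatives tried, from 0.31 to 0.64, with adjusted p from 0.0792 to 0.778. Its unadjusted p was under 0.05 in 13 of these. It was 0.0691 under quantile normalization, 0.0682 with the study's own values, 0.0513 without NEXN-WT replicate 2, 0.0576 without NEXN-S437E replicate 3, 0.160 with slide row as a block and 0.2445 in row 1 alone. The summed cardiomyocyte markers given above were higher in the same 3 hearts, on the scaling used here and with the exceptions under quantile normalization already stated.

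**Figure D2:**
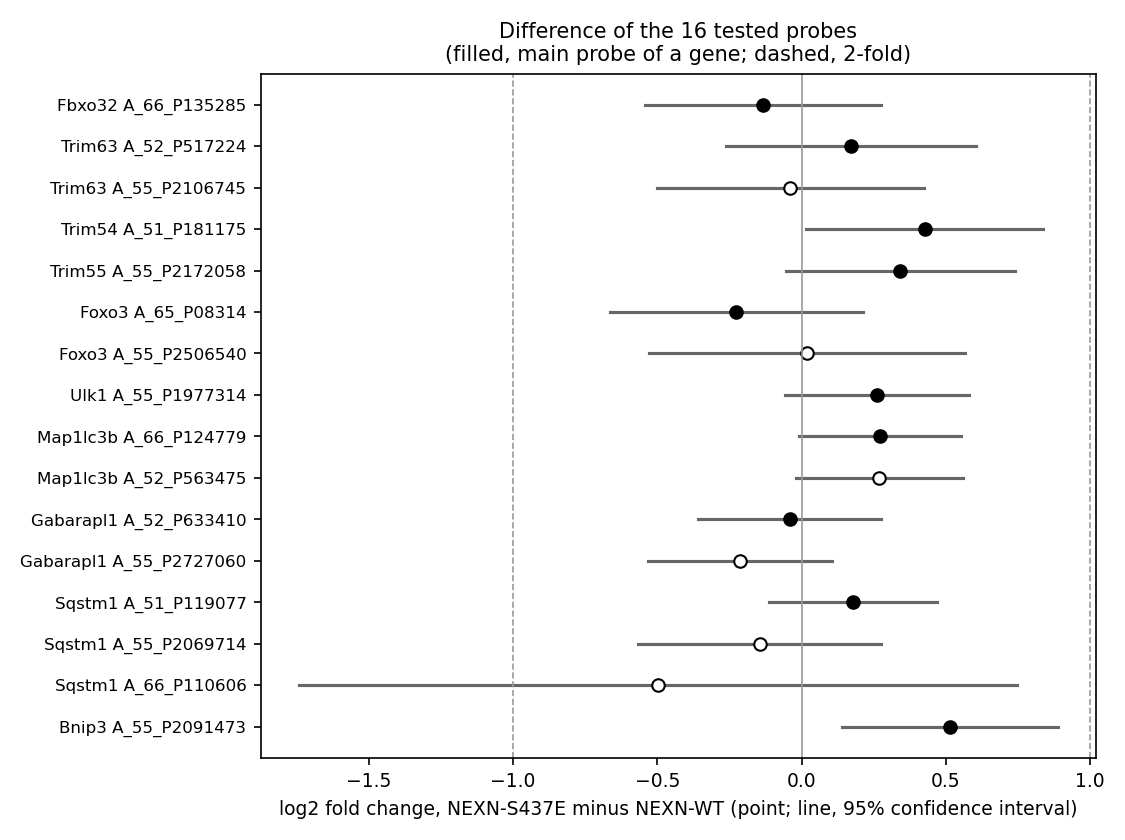
Log2 fold change (NEXN-S437E minus NEXN-WT) of the 16 tested member probes with its 95% confidence interval; filled points are the main probe of each gene, and dashed lines mark 2-fold. Only the intervals of *Trim54* and *Bnip3* leave out 0, and only that of the dim *Sqstm1* probe A_66_P110606 reaches beyond 2-fold.

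The position of the arrays on the slide differed between the groups. Slide row 1 held all 3 arrays of the NEXN-WT group with NEXN-S437E replicate 1, and row 2 held the other 2 NEXN-S437E arrays, so that a comparison within a row rests on NEXN-S437E replicate 1 alone. Within row 1 that heart was above the NEXN-WT mean by 0.345 for *Bnip3*, 0.33 for *Trim54*, 0.47 for *Trim55* and 0.29 for *Ulk1*. It was above by 0.24 for the brightest *Sqstm1* probe, and by 0.21 and 0.25 for the *Map1lc3b* probes. In these 7 probes every NEXN-S437E value lay above every NEXN-WT value, so the direction within row 1 was fixed by their choice. None of these 7 probes had an unadjusted p under 0.05 with the row as a block. That heart also had the highest summed level of the erythrocyte markers, 51.61 against 4.69 to 18.3 in the other 5, and the median log2 fold change of the 4 markers was 0.24 with that heart and −0.75 without it. Their part in the row 1 differences was not tested. For *Fbxo32* the row 1 difference was 0.07. The tested *Foxo3* probes differed in sign there, with −0.34 for A_65_P08314 and 0.49 for A_55_P2506540.

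**Figure D3:**
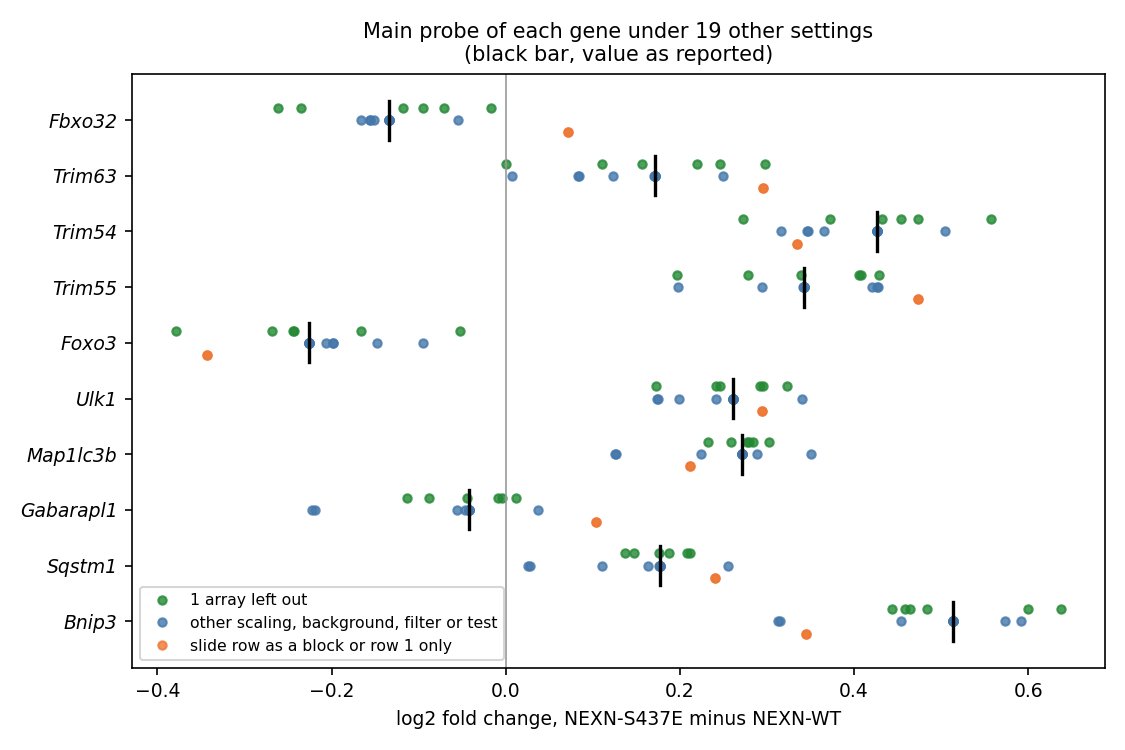
Log2 fold change of the main probe of each gene as reported (black bar) and under 19 other settings: each array left out (green), another scaling, background correction, filter or test (blue), and slide row as a block or row 1 alone (orange). *Trim63*, *Trim54*, *Trim55*, *Ulk1*, *Map1lc3b*, *Sqstm1* and *Bnip3* stay at or above 0 and *Foxo3* below it, while *Fbxo32* and *Gabarapl1* cross 0.

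For the genes whose probes differed in sign or agreed in size, the sequence of a probe with a reading frame free of stop codons is shown, 5′ to 3′ as deposited and without capitals because no part is singled out. The *Map1lc3b* probe gave the same difference as its partner, and the *Foxo3*, *Sqstm1* and *Trim63* probes gave the opposite sign to the brightest probe of their gene. The intervals of these probes and of the brightest probes all included no change, and differences between probes were not tested.
Map1lc3b A_52_P563475: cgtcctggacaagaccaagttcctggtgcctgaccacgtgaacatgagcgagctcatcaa
Foxo3 A_55_P2506540: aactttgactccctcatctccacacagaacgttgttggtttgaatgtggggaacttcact
Sqstm1 A_55_P2069714: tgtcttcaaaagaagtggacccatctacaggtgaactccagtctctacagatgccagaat
Trim63 A_55_P2106745: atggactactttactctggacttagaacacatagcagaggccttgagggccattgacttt
On mm9 these lie on chromosome 8 from 124119924 to 124119983 (+ strand), on chromosome 10 from 41916349 to 41916408 (− strand), on chromosome 11 from 50015985 to 50016044 (− strand) and on chromosome 4 from 133881557 to 133881616 (+ strand).

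The members were then set beside the rest of their pathways, with 1 probe per gene. Of the 13747 genes tested in this way, 0.182% passed the adjusted p, and 7.8% were higher and 10.1% lower at an unadjusted p under 0.05, with a median log2 fold change of −0.01. No gene of the 10 pathway lists passed the adjusted p, so all counts that follow are at the unadjusted threshold.

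Of 25 muscle E3 ligase genes, 2 were higher and 1 was lower, with a median of 0.07. *Rnf207*, a cardiac RING-finger protein linked to repolarisation, differed by 0.44 (unadjusted p = 0.0201) and *Trim54* by 0.43. *Fbxo30*, the F-box ligase MUSA1 and a FoxO target in muscle atrophy, differed by −0.57 (unadjusted p = 0.0298). Among 24 ubiquitin genes and conjugating enzymes, 2 were higher and 1 was lower, with a median of 0.09. *Ube2j1*, a conjugating enzyme of the endoplasmic reticulum, differed by 0.36 and *Ube2b* by 0.30. *Uchl1*, a deubiquitinase, differed by −0.91, with values of 2.30, 1.20 and 0.99 against 0.69, 0.46 and 0.60, and by −0.51 without NEXN-WT replicate 1, the highest heart.

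The constitutive 26S proteasome had estimates above 0 in 30 of 31 subunit genes, with a median of 0.21, and 5 of them (16.1%) passed at the unadjusted threshold, all higher, against 7.8% of all genes. *Psmb6*, a catalytic β subunit, had values of 3.00, 3.23 and 3.18 with NEXN-WT and of 3.45, 3.63 and 3.49 with NEXN-S437E, a difference of 0.39 (unadjusted p = 0.0212). *Psmb4* differed by 0.33 and *Psma6*, a subunit of the α ring, by 0.33. Under quantile normalization the median of the list was 0.09, with 27 of 31 above 0 and 1 gene past the threshold. The count was 10 with the percentile over all probes, with array weights and with an intensity trend, and 11 with the methods' t-test. No gene passed without NEXN-S437E replicate 2 or without replicate 3 of that group, 3 passed without NEXN-WT replicate 2 or without NEXN-WT replicate 3, and with slide row as a block 0 were higher and 1 was lower. The 31 genes are measured in the same 6 hearts and are not independent of each other. In the immunoproteasome list none of 4 genes passed, and the median was −0.17. The gene with the smallest p there was *Psme1*, a subunit of the PA28 activator (0.41, unadjusted p = 0.0853), followed by the catalytic subunits *Psmb8* at −0.21 and *Psmb10* at −0.15.

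Of 26 FoxO factors and known FoxO target genes, 2 were higher, 1 was lower and the median was 0.17. *Bnip3* and *Klf15*, a metabolic transcription factor of heart and muscle, were the 2 higher genes (0.51 and 0.42), and *Fbxo30* was the lower. The estimates of the FoxO target members were −0.13 for *Fbxo32*, −0.04 for *Gabarapl1*, 0.17 for *Trim63*, 0.26 for *Ulk1*, 0.27 for *Map1lc3b* and 0.51 for *Bnip3*. Of these only the interval of *Bnip3* left out 0.

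Of 20 autophagy initiation genes, 1 was higher and 0 were lower, with a median of −0.01. The gene was *Wdr45*, which encodes a phosphoinositide-binding protein of the forming autophagosome (0.31, unadjusted p = 0.0466), and *Wipi2* and *Nrbf2* had estimates of −0.39 and −0.25. In the ATG8 family and its conjugation machinery none of 16 genes passed, with a median of 0.07. Behind *Map1lc3b*, its relative *Map1lc3a* had an estimate of 0.65 (unadjusted p = 0.0713) that rested largely on NEXN-WT replicate 1, whose value of 1.59 compared with 2.65 to 3.06 in the other hearts. *Atg16l2* had −0.30.

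Of 17 autophagy and mitophagy receptor genes, 15 had estimates above 0, 2 (11.8%) passed and were higher, and the median was 0.23. Both that passed are mitophagy genes. *Pink1*, the kinase that marks damaged mitochondria, had values of 2.61, 3.05 and 3.09 with NEXN-WT and of 3.57, 3.41 and 3.49 with NEXN-S437E, a difference of 0.58 (unadjusted p = 0.00955, adjusted p = 0.193), and *Bnip3* was the other. *Calcoco1* had an estimate of 0.43. Under quantile normalization the list median was 0.14 and 1 gene passed. Without NEXN-WT replicate 1 the median was 0.09.

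Of 25 lysosome and TFEB genes, 0 were higher and 2 were lower, with a median of −0.11. *Ctsz*, a lysosomal cathepsin, was among the lower (−0.63, unadjusted p = 0.0269), and *Hexa* had an estimate of −0.30. Beside these values, 5 of 6 macrophage markers had estimates below 0 and 1 passed, with a median of −0.08 and a summed level of 11.18 to 15.17 in the NEXN-WT hearts and 11.99 to 12.27 in the NEXN-S437E hearts. Their part was not tested. Of 15 mTOR control genes, 1 was higher (*Tsc2*, 0.36) and 1 lower (*Gatsl3*, which encodes the arginine sensor CASTOR1, at −0.47), with a median of −0.02. *Sesn2* had −0.30. Over the 19 alternatives the medians of 4 lists took either sign, from −0.09 to 0.09 for autophagy initiation, −0.0035 to 0.14 for the ATG8 family, −0.18 to 0.001 for the lysosome list and −0.079 to 0.084 for mTOR control, while those of the proteasome (0.086 to 0.29), the receptors (0.091 to 0.31), the FoxO list (0.056 to 0.25), the muscle E3 ligases (0.025 to 0.15) and the ubiquitin list (0.021 to 0.17) stayed above 0 and that of the immunoproteasome (−0.21 to −0.07) below it. The number of genes higher reached 6 for the FoxO list and 5 for the ubiquitin list with the methods' t-test. The number lower reached 5 for the lysosome list with array weights. With 1 array left out in turn, the number of genes higher at the unadjusted threshold was 0 to 2 for the muscle E3 ligases, 0 to 2 for the ubiquitin list, 1 to 2 for the FoxO list, 1 to 4 for the receptors, 0 to 1 for autophagy initiation, the ATG8 family, the immunoproteasome and mTOR control, and 0 for the lysosome list. The number lower was 0 to 1 for the muscle E3 ligases, the ubiquitin list and mTOR control, 0 to 2 for autophagy initiation, 0 to 3 for the FoxO and lysosome lists, and 0 for the others. The most lower FoxO and autophagy initiation genes came without NEXN-WT replicate 3, where the FoxO list had 3 lower and 2 higher and the initiation list 2 lower and 1 higher. *Tsc2* passed only without NEXN-WT replicate 2 and *Gatsl3* only without NEXN-S437E replicate 1, and *Wdr45* passed only without NEXN-WT replicate 1 or 3. Of the genes named from the lists that passed as reported, *Pink1* alone passed with each of the 6 arrays left out. Some estimates moved by more than 1.5 times with an array left out. Without NEXN-WT replicate 1, *Ctsz* was −0.38, *Psme1* 0.20 and *Atg16l2* −0.16. Without NEXN-WT replicate 2, *Wipi2* was −0.24 and *Calcoco1* 0.25, and without NEXN-WT replicate 3 *Psmb8* was −0.11.

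**Figure D4:**
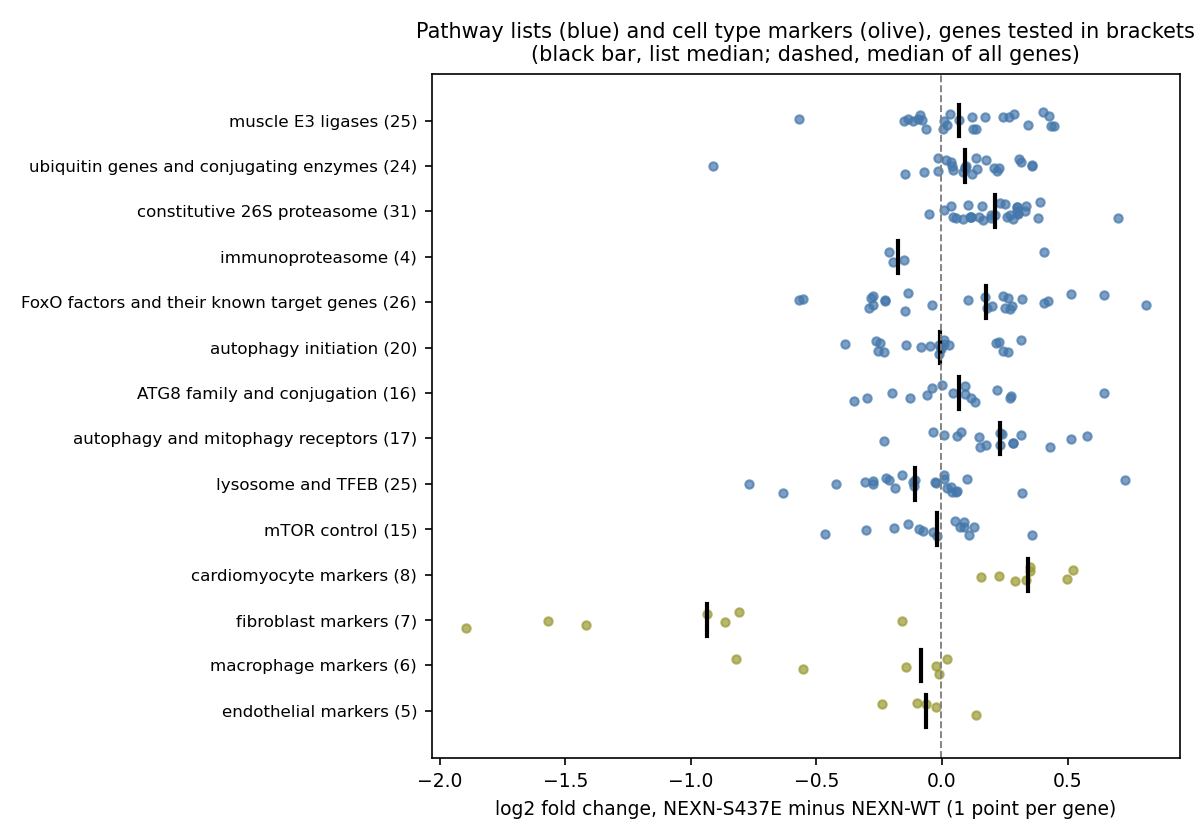
Log2 fold change (NEXN-S437E minus NEXN-WT) of every tested gene of the 10 pathway lists (blue) and of 4 cell type marker lists (olive), 1 point per gene, with the list median (black bar) and the median of all genes (dashed). The proteasome points lie mostly above 0 (30 of 31), the FoxO and E3 ligase points on both sides, and the fibroblast markers below 0 (7 of 7).

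The genes with the pattern most like that of the classical atrophy ligases over the 6 arrays were taken by Pearson correlation with the main probe. For *Fbxo32* they were *Sec63* (r = 0.994), *Nup155* (r = 0.990) and *E2f8* (r = 0.989), out of 20561 probes compared. For *Trim63* they included *Kcng2* (r = 0.996) and *Nprl2* (r = 0.994), out of 20560. The 6 arrays share a slide and a scaling, and with this many probes over 6 points high values are a description only.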

How the data were processed

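RNA from the myocardium of mice given by the sample labels as 3 NEXN-WT and 3 NEXN-S437E, all *Clk4*-cKO, was marked with Cy3 and hybridised to Agilent SurePrint G3 mouse arrays on 1 slide. Groups were taken from the sample labels. The authors extracted the spots with Feature Extraction 10.7.1.1, and the per-array values they deposited are background-subtracted linear intensities, not normalized to each other. A series table that the authors deposited adds normalized log2 values whose 6 columns hold the same sorted values, and 12 further columns of per-array signals and flags were not used. Probe coordinates are on mm9, and without a genome of that build the exon or UTR of a probe was not assigned.

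Outlier spots were left out, the spots of a probe were averaged, and each array's 75th percentile over the 21110 probes well above background on all 6 arrays was subtracted on the log2 scale. Probes that all 3 arrays of a group read well above background were tested with limma 3.58.1 (lmFit, eBayes; R 4.3.3, with version 1.17.8 of the data.table package) and Benjamini-Hochberg adjustment. Intervals are limma's moderated 95% confidence intervals. Where no array of a group read a probe well above background, the fold is a bound against the lowest signal well above background on each array. The number of arrays limits the precision. The p-values set each difference against the spread between these hearts, which limma moderates with that of all tested probes. No spot was saturated. The fit was tested on simulated data. Plots used matplotlib 3.10.9, pandas 2.3.3 and numpy 2.4.6 under Python 3.11.15.

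The members, gene lists and motifs were chosen with earlier results of these data known. Named are all members, the 3 genes of smallest p in each pathway list, the 3 genes most like *Fbxo32* and *Trim63*, and *Clk4*, *Nexn* and *Esr1* as a check of the labels. Some genes that this rule names are not reported here. Other scalings, background correction, filters, tests, blocks and each array left out were alternatives, and slide row 1 alone was added after the data had been seen. Markers of endothelial cells (0 of 5 past an unadjusted p of 0.05), fast skeletal muscle (1 of 4 higher and 1 lower), erythrocytes (0 of 4) and adipocytes (0 of 4 genes passed the filter) were read as well.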

Additional observations from a re-analysis of the deposited data

How the results depend on the processing

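No member probe passed the adjusted p under any of the 19 alternatives, and 286 of 303 member differences kept their direction. The count of member probes higher at an unadjusted p under 0.05, 2 as reported, was 4 with the percentile over all probes, with the methods' t-test, with array weights and with an intensity trend, 0 under quantile normalization, with the study's own values, with slide row as a block and with row 1 alone, and 1 with each array left out in turn. That 1 probe was *Bnip3* without NEXN-WT replicate 1 or 3 or NEXN-S437E replicate 1 or 2, and *Trim54* without NEXN-WT replicate 2. Without NEXN-S437E replicate 3 neither passed (unadjusted p of 0.0576 and 0.0937), and the 1 was *Trim63* A_51_P115335, which was not tested as reported (0.89, unadjusted p = 0.0149). One member probe was lower with array weights (*Gabarapl1* A_55_P2727060), and *Sqstm1* A_66_P110606 was lower and past 2-fold with slide row as a block and in row 1 alone, where NEXN-S437E replicate 1 decides, giving a count of 1 each. The sign turned for *Gabarapl1* A_52_P633410 (0.0366 with the percentile over all probes, 0.104 with slide row as a block and in row 1 alone, −0.113 to 0.0113 with 1 array left out) and for *Trim63* A_55_P2106745 (0.0393 with the percentile over all probes, −0.22 to 0.0946 with 1 array left out). It also turned for *Fbxo32* (0.072) and *Sqstm1* A_55_P2069714 (0.094) with slide row as a block and in row 1 alone, for *Sqstm1* A_66_P110606 (0.157 with normexp, −0.864 to 0.182 with 1 array left out, the highest without NEXN-S437E replicate 1) and for *Foxo3* A_55_P2506540 (−0.179 with array weights, −0.214 to 0.189 with 1 array left out).

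Of all tested probes, 34 passed the adjusted p, and 6 did so without the filter, 18 with the filter on all 6 arrays, 0 with the methods' t-test (416 past 2-fold and an unadjusted p of 0.05), 0 with slide row as a block (803 past these), 0 in row 1 alone, 485 with array weights and 7 to 126 with 1 array left out, the most without NEXN-WT replicate 1. The 590 past the study's thresholds were 176 with normexp, 1948 without the filter, 354 with the filter on all 6 arrays, and 382 to 1043 with 1 array left out. The replicate numbers did not pair the arrays (correlations of deviations −0.15, −0.03 and −0.18), and with the replicate block 12 probes passed the adjusted p. The cause of these differences was not tested. Signal over background limits the dim probes of *Foxo3*, *Trim63*, *Sqstm1*, *Map1lc3b* and *Ulk1*.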
